A study of Mus musculus with 6 samples.

Results

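The genes described here are 43 collagen chains, chosen by name, and all 43 were found among the 54232 gene identifiers of the count files. They were read in RNA from mammary tumors of NIC+ mice, with 3 libraries of the genotype CdGAP wt/wt and 3 of CdGAP fx/fx. In NIC mice the promoter of mouse mammary tumor virus makes mammary epithelial cells express an activated ErbB2 (Neu) receptor and, from the same transcript, Cre recombinase. Both genotypes carried this oncogene and Cre. CdGAP is a GTPase-activating protein for Cdc42 and Rac1, encoded by Arhgap31, and in fx/fx mice both of its copies can be recombined by Cre. The tumors also held stromal cells that do not express Cre, and their RNA entered the same libraries. The labels give no age and do not say whether each library is a different mouse. The p-values therefore speak only of the spread between these 6 samples, which may be technical. Libraries are named by genotype and labelled replicate number, from wt1 to wt3 and from fx1 to fx3.

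Collagens are extracellular proteins in which 3 chains wind into a triple helix. Fibrillar collagens, such as types I, III, V and XI, assemble into the banded fibrils that give tissue its tensile strength, and fibril-associated collagens, such as types IX, XII and XIV, sit on the fibril surface. Type IV forms the sheet-like network of basement membranes, types VIII and X form hexagonal networks, and type VI forms beaded filaments close to cells. In mammary tumors the fibrillar chains are mostly made by fibroblasts, while epithelial and endothelial cells contribute to basement membrane. Types II, IX and XI are best known as the fibril partners of cartilage.

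Total counts ranged from 36732137 (fx2) to 53606276 (fx1) per library, at which 3 counts equal 0.056 to 0.0817 CPM (counts scaled to a common library size). A gene with 0 counts may lie anywhere up to that level, by counting error alone. Arhgap31 measured 664, 433 and 549.8 CPM in the wt/wt libraries and 156, 44.1 and 116 CPM in the fx/fx libraries, so the genotypes did not overlap (log2 fold change -2.38, SE 0.45, edgeR adjusted p = 0.153). Ribosomal protein genes averaged 0.98 lower on the log2 scale in fx1 than the wt/wt mean, against 0.14 and 0.17 lower in fx2 and fx3 and 0.16 lower in wt1. The tumor label was checked against 6 epithelial markers (Epcam, Krt8, Krt18, Krt19, Cdh1 and Erbb2), which summed to 4191 to 6183 CPM in wt/wt and 5554 to 7082 CPM in fx/fx, with none of them below 1 CPM in all libraries. The 10 fibroblast markers that are not collagens summed to 71.6 to 90.1 CPM in wt/wt, and to 204.6, 223.5 and 111.6 CPM in fx1, fx2 and fx3. Their part in the collagen values was not tested, and in bulk RNA more cells of a type and more RNA per cell cannot be told apart.

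Most collagen chains were higher in fx/fx tumors. Of the 43 chains, 36 passed the filter on low counts and were tested. The median log2 fold change of these 36 chains (fx/fx over wt/wt) was 1.16, with a range from -1.86 to 3.81, against -0.0043 for all 16752 genes tested, and 30 of the 36 were positive. Every fx/fx library lay above every wt/wt library for 19 chains (52.8% of those tested, against 9.74% of all genes), and the reverse held for 0 chains (9.93% of all genes). At an unadjusted p under 0.05 in edgeR's quasi-likelihood test, 23 chains were higher (63.9%, against 8.18% of all genes) and 0 were lower (6.04% of all genes). After Benjamini-Hochberg adjustment edgeR called 0 chains, as it called 0% of all genes. DESeq2, run as an alternative, called 18 of the 36 chains higher (50%, against 3.01% of all genes) and 0 lower (1.96% of all genes). Of these 18 calls, 9 held whichever 1 library was left out: Col1a2, Col3a1, Col11a1, Col11a2, Col27a1, Col9a3, Col14a1, Col15a1 and Col18a1. The number of chains DESeq2 called higher was 9 without wt1, 11 without wt3 or fx1, 15 without fx2, 17 without wt2 and 22 without fx3. Without fx2 it also called 1 chain lower, Col7a1.

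Not every chain had the same chance to be tested. The 7 chains that did not pass the filter were Col2a1, Col24a1, Col19a1, Col4a3, Col6a4, Col6a5 and Col6a6. Col17a1 passed only through the fx/fx libraries, with 0 wt/wt and 3 fx/fx libraries above the minimum, so its difference was a condition of its being tested. Without it, 18 of 35 chains did not overlap with fx/fx above, 22 were higher at an unadjusted p under 0.05 in edgeR, 17 were called higher by DESeq2, and the median log2 fold change was 1.15. Col10a1 passed with 2 wt/wt and 3 fx/fx libraries above it, and Col22a1 and Col26a1 with 1 and 2.

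**Figure D1:**
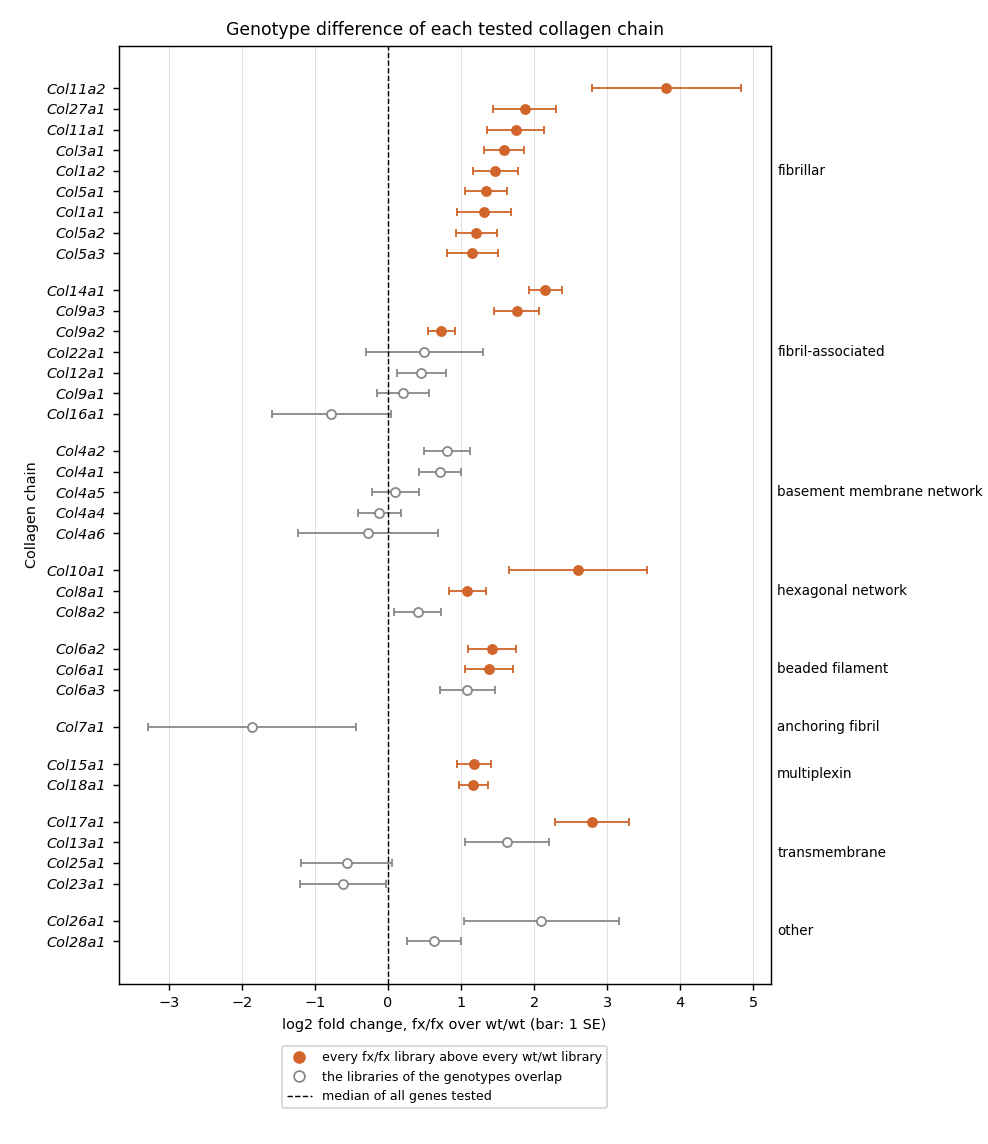
Log2 fold change of each of the 36 tested collagen chains (x axis, fx/fx over wt/wt, bar 1 SE, from edgeR), by class. Filled points are the 19 chains with every fx/fx library above every wt/wt library, open points are chains whose libraries overlap, and the dashed line is the median of all genes tested. The 9 fibrillar chains are all filled, while the basement membrane chains are all open and near or below 1.

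The classes had different medians. The median log2 fold change was 1.47 over the 9 tested fibrillar chains, 1.38 over 3 beaded filament chains, 1.08 over 3 hexagonal network chains, 0.53 over 4 transmembrane chains, 0.50 over 7 fibril-associated chains and 0.10 over 5 basement membrane chains. Groups of libraries did not overlap for 9 of 9 fibrillar chains, 2 of 3 beaded filament chains, 2 of 3 hexagonal network chains, 1 of 4 transmembrane chains, 3 of 7 fibril-associated chains and 0 of 5 basement membrane chains, with fx/fx above in each case, as in 9.74% of all genes. The 1 transmembrane chain was Col17a1, which passed the filter only through fx/fx and also counts in the transmembrane median. The other transmembrane chains were Col13a1 at 1.63, Col25a1 at -0.57 and Col23a1 at -0.62. Without Col17a1 the middle value of that class is therefore -0.57. The fibril-associated median is the value of Col22a1 (SE 0.80), a rare chain between 0.0443 and 0.393 CPM. The difference between classes was not itself tested.

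The promoters of 4 chains are shown here, because their genes carry the contrasts described below: Col3a1 of the common stromal fibril, Col11a1 and Col11a2 of type XI, and Col9a1, the most abundant chain. Each sequence is the 150 bases before a RefSeq transcription start, 5′ to 3′, and lies outside the exons of the gene annotation. Capitals mark a CCAAT motif (CCAAT, or ATTGG on the other strand), a GC box (GGGCGG, or CCGCCC) or a TATA box (TATAAA, or TTTATA).
Col3a1 (GRCm38.p6, plus strand, chr1:45311388-45311537): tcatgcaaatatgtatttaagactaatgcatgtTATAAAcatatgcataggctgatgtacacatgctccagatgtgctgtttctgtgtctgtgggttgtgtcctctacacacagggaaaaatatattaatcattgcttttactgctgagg
Col11a1 (GRCm38.p6, plus strand, chr3:114030390-114030539): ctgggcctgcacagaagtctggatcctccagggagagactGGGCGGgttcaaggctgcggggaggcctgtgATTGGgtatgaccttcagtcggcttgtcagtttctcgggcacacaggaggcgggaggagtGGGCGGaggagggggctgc
Col11a2 (GRCm38.p6, plus strand, chr17:34038988-34039137): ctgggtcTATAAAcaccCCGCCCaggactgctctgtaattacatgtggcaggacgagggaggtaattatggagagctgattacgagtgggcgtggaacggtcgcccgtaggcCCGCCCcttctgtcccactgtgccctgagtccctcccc
Col9a1 (GRCm38.p6, plus strand, chr1:24177460-24177609): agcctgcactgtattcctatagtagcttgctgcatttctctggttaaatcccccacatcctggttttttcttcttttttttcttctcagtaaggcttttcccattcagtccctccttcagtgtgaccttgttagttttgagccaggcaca
The Col3a1 window held 1 TATA box and no GC box, and was 37.3% G and C. The Col11a1 window held 2 GC boxes and 1 CCAAT, at 64.7% G and C. The Col11a2 window held 1 TATA box and 2 GC boxes, at 60% G and C. The Col9a1 window shown held none of the 3 motifs, and a second RefSeq window of that gene, downstream of this one, held 1 CCAAT. RefSeq windows (GRCm38.p6) were found for 34 of the 43 chains, 37 windows in all. A GC box was in 51.4% of them and in 28.6% of the 32851 windows of all genes, CCAAT in 21.6% and 24.5%, and a TATA box in 10.8% and 7.57%. These are matches of letters on both strands and do not show that a factor binds.

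Type IX had the highest summed RNA level of all collagen types in each of the 6 libraries. Levels between chains are compared per kilobase of exon. In wt/wt, Col9a1 measured 426 ± 10.9 CPM per kilobase (SD, n = 3), Col9a2 105.9 ± 14.1, Col11a1 43.1 ± 6.02 and Col4a1 35.5 ± 6.24, followed by Col4a2, Col4a5, Col9a3, Col1a1, Col7a1 and Col3a1. The spreads of Col4a2 (23.3 ± 3.94), Col4a5 (23.1 ± 9.3), Col9a3 (18.7 ± 5.4), Col1a1 (17.8 ± 7.76), Col7a1 (16.0 ± 16.2) and Col3a1 (13.4 ± 2.84) overlap, so their order is not settled. The 3 type IX chains made up 73.1%, 62.6% and 74.5% of the summed per-kilobase level of the 43 chains in wt1, wt2 and wt3. In fx1, fx2 and fx3 they made up 54%, 52.1% and 69.9%. The share of the fibrillar class was 11.6% ± 1.84 in wt/wt and 23.4% ± 2.73 in fx/fx (SD, n = 3 each), and its libraries did not overlap. Within that class, Col11a1 alone held 5.45% ± 0.43 in wt/wt and 11.4% ± 3.81 in fx/fx, also without overlap. Types I, III and V did overlap, at 6.2%, 7.1% and 4.39% in wt/wt and 8.57%, 17.4% and 6.72% in fx/fx.

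The pool as a whole was larger in fx/fx. The listed chains took between 0.418% and 0.568% of all counts in wt/wt and between 0.641% and 0.849% in fx/fx. Their summed level was 790 ± 76.7 CPM per kilobase in wt/wt and 1226 ± 225 in fx/fx, with 977.8 in fx2, the lowest fx/fx library, above 874.8 in wt2, the highest wt/wt library. With the length of the longest coding transcript in place of all exons, type IX held 69.3% ± 6.26 of the pool in wt/wt and 55.8% ± 9.64 in fx/fx.

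**Figure D2:**
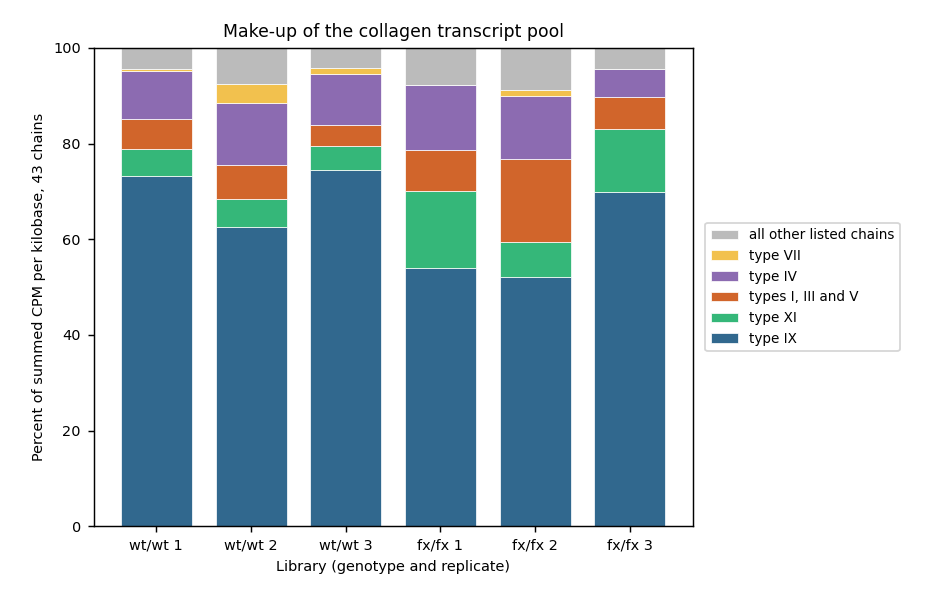
Make-up of the collagen transcript pool in each library (y axis, percent of the summed CPM per kilobase of 43 chains; x axis, library). Type IX is the largest block in all 6 bars, from 52.1% (fx2) to 74.5% (wt3), type XI is largest in fx1 (16.1%), and types I, III and V are largest in fx2 (17.4%).

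Types I, III and V, the collagens of the common stromal fibril, did not overlap between genotypes in any of their 6 chains, with fx/fx on the higher side. Col1a1 (chromosome 11, 94936224 to 94953042, plus strand, GRCm38), the major chain of type I, measured 103.8, 173 and 73.9 CPM in the wt/wt libraries, in the order of their numbers, and 227, 413.6 and 232 CPM in the fx/fx libraries; the same order holds below. Col1a2 (chromosome 6, 4504814 to 4541544), its partner chain, measured 99.8, 129.5 and 77.3 against 244.5, 401 and 203.5 CPM. Col3a1 (chromosome 1, 45311538 to 45349706), which forms the type III homotrimer, measured 138, 156 and 101 against 361, 517 and 306 CPM. In all of them fx2 was the highest library and wt3 the lowest.

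The mean of Col3a1 was 131.5 ± 27.9 CPM over wt/wt and 395 ± 109 CPM over fx/fx (SD, n = 3 each), a 3.00-fold difference (log2 fold change 1.59, SE 0.27), with adjusted p = 0.153 in edgeR and 9.6e-05 in DESeq2. Col1a2 was 2.77-fold higher in the mean (log2 fold change 1.47, SE 0.31) and Col1a1 2.49-fold (1.31, SE 0.37). The edgeR adjusted p was 0.182 and 0.217, and the DESeq2 adjusted p 0.0031 and 0.0355. DESeq2 no longer called Col1a1 without wt1, wt3, fx1 or fx2. Of the 9816 exon bases of Col3a1, 1.44% are shared with a predicted gene on the same strand.

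Type V nucleates type I fibrils, and in Col5a1 and Col5a2 fx2 was again the highest and wt3 the lowest library. Col5a1 (chromosome 2) measured 15.7, 23.3 and 14.3 CPM in wt/wt and 38.8, 61 and 35.2 CPM in fx/fx. Col5a2, which lies beside Col3a1 on chromosome 1, measured 38.3, 43.9 and 29.5 against 91.7, 111 and 55.8 CPM. Col5a3 (chromosome 9) measured 8.44, 14.3 and 8.71 against 32.3, 21.96 and 15.7 CPM, with fx1 and not fx2 at the top. Their log2 fold changes were 1.34 (SE 0.29), 1.21 (SE 0.29) and 1.15 (SE 0.34), with edgeR adjusted p of 0.182, 0.185 and 0.228. DESeq2 gave adjusted p of 0.0053, 0.015 and 0.0505, so Col5a3 missed its threshold; it no longer called Col5a1 without wt1 or wt3, or Col5a2 without wt1, wt3, fx1 or fx2.

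**Figure D3:**
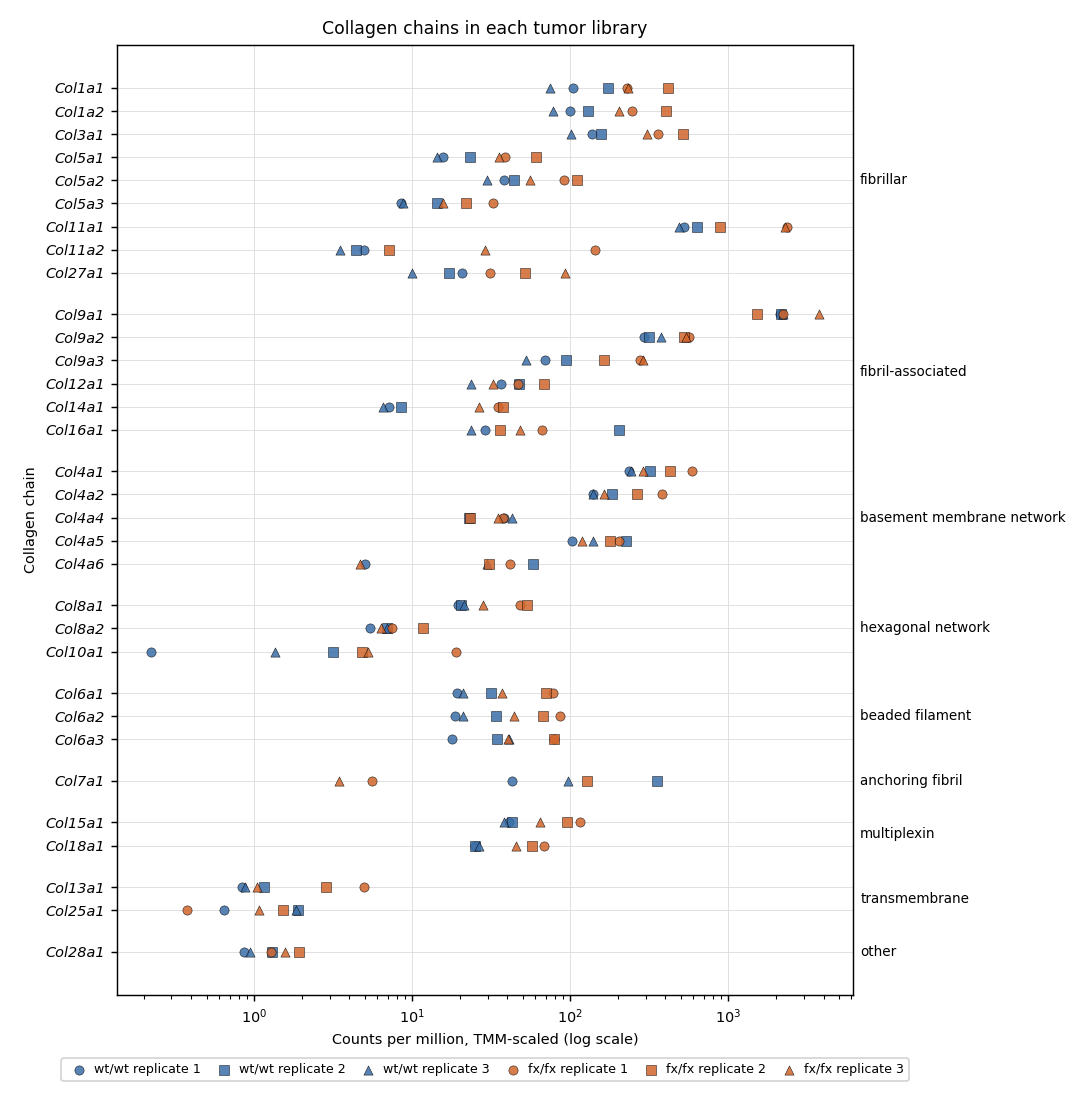
TMM-scaled CPM (x axis, log scale) of the 32 collagen chains with a mean of at least 1 CPM, by class. Each point is 1 library, wt/wt in blue and fx/fx in orange, with circle, square and triangle for replicates 1, 2 and 3. The chains of types I, III and V other than Col5a3 lie furthest right in fx/fx replicate 2, and Col11a1 and Col11a2 in fx/fx replicates 1 and 3.

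Type XI, which sets the diameter of thin fibrils and copolymerizes with type II in cartilage, was also higher in every fx/fx library, but in other libraries than type I. Col11a1 (chromosome 3, 114030540 to 114220718, plus strand), whose promoter is printed above, measured 527, 635 and 486.5 CPM in wt/wt and 2358, 889 and 2293 CPM in fx/fx. Here fx2 was only 1.62-fold above the wt/wt mean, and fx1 and fx3 were 4.29-fold and 4.17-fold above it. The log2 fold change was 1.75 (SE 0.39), with adjusted p = 0.184 in edgeR and 0.0011 in DESeq2.

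Col11a2 (chromosome 17, 34039437 to 34066685, plus strand), the second chain of type XI, had the highest log2 fold change of the tested chains and differed widely within fx/fx. It measured 4.99, 4.38 and 3.47 CPM in wt/wt and 144, 7.12 and 29.0 CPM in fx/fx, so that fx1 was 20.2-fold above fx2. The log2 fold change was 3.81 (SE 1.02), and 2.06 without fx1. Its adjusted p was 0.212 in edgeR and 0.00031 in DESeq2. Per kilobase Col11a2 reached 0.0146 ± 0.0026 of the level of Col11a1 in wt/wt, and 0.114, 0.0149 and 0.0236 of it in fx1, fx2 and fx3.

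Col2a1, the type II chain with which types IX and XI copolymerize in cartilage, was close to the floor. Its counts were 9, 8 and 8 in wt/wt and 81, 7 and 8 in fx/fx, or 1.52 CPM in fx1 and 0.175 to 0.199 CPM in the other libraries. The 5 chains of types IX and XI, without Col2a1, held 68.4% to 79.5% of the pool in wt/wt and 59.35% to 82.9% in fx/fx.

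Markers of cartilage and bone were given beside these chains, and their part in the result was not tested. The list of 10 (Acan, Sox9, Comp, Matn1, Matn3, Hapln1, Cnmd, Ibsp, Sp7 and Bglap) summed to 198 to 269.5 CPM in wt/wt and to 5088, 608 and 1785 CPM in fx1, fx2 and fx3. Of the 10, Acan, Matn1, Matn3, Hapln1, Ibsp and Bglap were below 1 CPM in all 6 libraries. Comp, a matrix protein that binds collagen fibrils, was picked out here after its values were seen. It measured 15.4, 35.05 and 164 CPM in wt/wt and 4820, 353 and 1442 CPM in fx/fx. Comp was most of the sum in wt3 and in every fx/fx library. In wt1 and wt2 most of it was Sox9, which overlapped between genotypes, at 181, 197 and 103 against 116, 253 and 281 CPM. Cnmd and Sp7 also overlapped, Cnmd at 0.288, 0.96 and 2.03 against 151, 0.482 and 59.9 CPM.

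Col27a1 (chromosome 4, 63214004 to 63334991), a fibrillar chain best known from the growth plate, was also higher in every fx/fx library. It measured 20.7, 17.1 and 10 CPM in wt/wt and 31.2, 51.4 and 91.9 CPM in fx/fx, highest in fx3. The log2 fold change was 1.87 (SE 0.44), with adjusted p = 0.185 in edgeR and 0.0032 in DESeq2. Col24a1, the remaining fibrillar chain, had 2 to 9 counts per library and was not tested.

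The fibril-associated chains did not move as a block. Col9a1 (chromosome 1, 24177610 to 24252684, plus strand), the type IX chain that can carry a large amino-terminal domain, was within 1.05-fold among wt/wt libraries, at 2115, 2141 and 2221 CPM. In fx/fx it measured 2218, 1508 and 3764 CPM, on both sides of the wt/wt range. Its log2 fold change was 0.21 (SE 0.36, edgeR adjusted p = 0.836), and it was -0.19 without fx3.

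The other type IX chains were higher in every fx/fx library. Col9a2 (chromosome 4) measured 294, 312.5 and 377 CPM in wt/wt and 565, 525 and 536 CPM in fx/fx, a log2 fold change of 0.73 (SE 0.19). Col9a3 (chromosome 2) measured 69.4, 93.9 and 52.5 against 278, 163 and 289 CPM, a log2 fold change of 1.76 (SE 0.30). The edgeR adjusted p was 0.195 and 0.153, and the DESeq2 adjusted p 0.0096 and 7.3e-05, the call of Col9a2 being lost without wt1 or wt2. As for Col11a1, fx2 was the lowest fx/fx library for all 3 type IX chains, but for Col9a2 the fx/fx libraries lay within 1.08-fold of each other.

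Of the 3 ratios among the type IX chains, chosen after the values were seen, the 2 with Col9a3 did not overlap between genotypes. The triple helix of type IX takes 1 chain of each gene. Per kilobase, Col9a1 was 23.2, 17.3 and 32.2 times as high as Col9a3 in wt/wt and 6.07, 7.05 and 9.91 times as high in fx/fx, without overlap. The ratio of Col9a3 to Col9a2 was 0.181 ± 0.0651 in wt/wt and 0.359 ± 0.0973 in fx/fx (SD, n = 3 each), also without overlap, with 0.241 in wt2 and 0.249 in fx2 nearly meeting. The ratio of Col9a1 to Col9a2 overlapped, at 4.39, 4.18 and 3.60 in wt/wt and 2.40, 1.75 and 4.29 in fx/fx.

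Col14a1 (chromosome 15, 55307750 to 55520803, plus strand), a fibril-associated chain of type I fibrils, had the smallest edgeR p of all chains. It measured 7.18, 8.44 and 6.57 CPM in wt/wt and 34.7, 37.3 and 26.5 CPM in fx/fx, and each fx/fx library was between 3.58-fold and 5.04-fold above the wt/wt mean. The log2 fold change was 2.15 (SE 0.23), with adjusted p = 0.15 in edgeR and 7.0e-13 in DESeq2. Col12a1 (chromosome 9), its closest relative by structure, measured 36.3, 47.4 and 23.6 against 46.4, 68.1 and 32.7 CPM, with overlapping genotypes (log2 fold change 0.46, SE 0.34).

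Col16a1 (chromosome 4), a fibril-associated chain made by several cell types, was set by 1 library. It measured 28.9, 205 and 23.6 CPM in wt/wt and 65.9, 36.02 and 48.0 CPM in fx/fx. Its log2 fold change was -0.78 (SE 0.82), and it was 0.93 without wt2. Col22a1, a chain of tissue junctions, stayed between 0.0443 and 0.393 CPM, and Col19a1 had 1 count in fx1 and 0 in the other libraries.

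The main basement membrane chains, Col4a1 and Col4a2, were higher in fx1 and fx2 than in wt/wt but not in fx3. Both genes share a bidirectional promoter region on chromosome 8 and their products join in 1 trimer. Col4a1 measured 234, 319 and 242 CPM in wt/wt and 585, 428 and 286.5 CPM in fx/fx. Col4a2 measured 139.6, 184 and 138.5 against 379, 265 and 164.5 CPM. Their log2 fold changes were 0.71 (SE 0.29) and 0.81 (SE 0.31), with edgeR adjusted p of 0.328 and 0.308. Without fx1 they were 0.42 and 0.47.

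The ratio of Col4a1 to Col4a2 per kilobase kept within 1.37 to 1.55 in all 6 libraries. Endothelial cells are a main source of this trimer, and 8 endothelial markers (Pecam1, Cdh5, Kdr, Tie1, Tek, Emcn, Erg and Eng) summed to 114 to 142 CPM in wt/wt and to 267, 235 and 137 CPM in fx1, fx2 and fx3, none of them below 1 CPM in all libraries. Fx1 was the highest and fx3 the lowest fx/fx library for the marker sum and for both chains. That order was not particular to them. It also held for Col6a1, Col6a2, Col15a1, Col18a1 and the sum of the pericyte and smooth muscle markers given below. Within the endothelial list, Kdr and Tek were highest in fx2. The part of the endothelial markers in the result was not tested.

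The chains of the more specialized basement membranes showed no shared direction. Col4a5 (chromosome X) measured 103, 225 and 138 CPM in wt/wt and 204, 177 and 118 CPM in fx/fx. Col4a6, its head-to-head neighbour, measured 5.01, 57.9 and 29.9 against 41.6, 30.4 and 4.71 CPM, an 11.6-fold range within wt/wt and an 8.85-fold range within fx/fx. Col4a4 (chromosome 1) measured 38.3, 23.0 and 42.5 against 37.4, 23.2 and 35.1 CPM. The log2 fold changes were 0.10 (SE 0.33), -0.27 (SE 0.96) and -0.12 (SE 0.29), and each turned its sign when 1 of 2 libraries was left out. Col4a3, with which Col4a4 and Col4a5 form a trimer in the kidney, had 0 to 9 counts per library.

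Among the hexagonal network chains, Col8a1 (chromosome 16), a chain of vessel walls and stroma, measured 19.3, 20.4 and 21.3 CPM in wt/wt and 48.3, 52.8 and 28.2 CPM in fx/fx (log2 fold change 1.08, SE 0.26). Its partner Col8a2 (chromosome 4) overlapped, at 5.38, 6.90 and 6.92 against 7.42, 11.7 and 6.33 CPM. Col10a1 (chromosome 10), the chain of hypertrophic cartilage, measured 0.222, 3.17 and 1.35 CPM in wt/wt and 18.8, 4.79 and 5.21 CPM in fx/fx. Its log2 fold change of 2.60 (SE 0.94) was 1.65 without fx1. DESeq2 called Col8a1 (adjusted p = 0.0171) and Col10a1 (adjusted p = 0.0369). The call of Col8a1 was kept only without fx3, and that of Col10a1 was lost without wt1, wt3 or fx1.

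Type VI was higher in fx/fx in its main trimer. Col6a1 and Col6a2, neighbours on chromosome 10, measured 19.1, 31.3 and 21.1 CPM and 18.7, 34.1 and 20.9 CPM in wt/wt. In fx/fx they measured 78.2, 70.55 and 37.1 CPM and 86.5, 66.9 and 44.2 CPM, without overlap. Col6a3 (chromosome 1), the largest chain of the trimer, measured 17.7, 34.6 and 41.2 CPM against 78.7, 79.0 and 40.2 CPM, so that fx3 lay below wt3. The log2 fold changes were 1.38 (SE 0.33), 1.42 (SE 0.33) and 1.08 (SE 0.38), with edgeR adjusted p of 0.185, 0.184 and 0.273. DESeq2 called Col6a1 and Col6a2 (adjusted p = 0.0106 and 0.007), and each call was lost without wt1, wt3 or fx1. Col6a4, Col6a5 and Col6a6, which can replace Col6a3 in the trimer, had between 0 and 21 counts per library.

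Col7a1 (chromosome 9, 108953586 to 108984875, plus strand), the chain of the anchoring fibrils that tie epithelial basement membrane to stroma, was the chain with the lowest log2 fold change and varied most between libraries of 1 genotype. It measured 43.05, 355 and 96.7 CPM in wt/wt and 5.59, 127 and 3.44 CPM in fx/fx. In fx1 and fx3 it was below every wt/wt library, while fx2 lay inside the wt/wt range. The log2 fold change was -1.86 (SE 1.42, edgeR adjusted p = 0.609). Without fx2 it was -5.18 (adjusted p = 0.102 in edgeR and 1.0e-08 in DESeq2, which then called it lower), and without wt2 it was -0.63.

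The multiplexins of vascular and epithelial basement membrane zones were tight in wt/wt and higher in fx/fx. Col15a1 (chromosome 4) measured 41.1, 42.9 and 38.2 CPM in wt/wt and 116, 95.3 and 64.3 CPM in fx/fx. Col18a1 (chromosome 10, 77052178 to 77166548, minus strand), whose carboxy-terminal fragment is endostatin, measured 24.9, 24.8 and 26.6 against 68.2, 57.6 and 45.1 CPM. The log2 fold changes were 1.17 (SE 0.23) and 1.16 (SE 0.20), with edgeR adjusted p of 0.164 and 0.153 and DESeq2 adjusted p of 0.0036 and 0.00033. As for Col4a1, Col4a2 and type VI, fx3 was the lowest fx/fx library.

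The transmembrane collagens and the remaining chains were rare. Col13a1, a transmembrane chain of cell adhesions, measured 0.842, 1.16 and 0.873 CPM in wt/wt and 4.99, 2.87 and 1.04 CPM in fx/fx, with fx3 inside the wt/wt range. Col25a1, a brain-enriched transmembrane chain, measured 0.643, 1.90 and 1.83 against 0.377, 1.53 and 1.07 CPM, and Col28a1 measured 0.864, 1.30 and 0.939 against 1.28, 1.93 and 1.58 CPM. Col17a1, the hemidesmosome collagen, had 2, 4 and 6 counts in wt/wt and 30, 22 and 30 counts in fx/fx. As it passed the filter only through fx/fx, its test is not read here. Col23a1 had 13 to 57 counts and Col26a1 0 to 31 counts per library.

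In all 6 ratios between chains that were set out for types I, III, V, IV and VI, the libraries of the genotypes overlapped. Overlap among so few libraries does not show that proportions were kept. It was also the usual case for single genes, as fx/fx lay wholly above in 9.74% and wholly below in 9.93% of all genes. The ratio of Col1a1 to Col1a2 per kilobase of exon was 2.10 ± 0.379 in wt/wt and 1.96 ± 0.199 in fx/fx (SD, n = 3 each). Taken over the longest coding transcripts it was 1.00 ± 0.18 and 0.932 ± 0.0948, so its level depends on the length used. A change of length scales this ratio alike in every library, so it cannot alter the fold difference between genotypes and is no check on it. The ratio of Col6a1 to Col6a2 was 1.87 ± 0.11 and 1.77 ± 0.21, and that of Col5a1 to Col5a2 was 0.537 ± 0.0686 and 0.604 ± 0.118. The ratio of Col3a1 to Col1a1 was 0.801 ± 0.173 and 0.927 ± 0.119, and that of Col6a3 to Col6a1 was 0.486 ± 0.201 and 0.392 ± 0.0212.

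The 3 fx/fx tumors were not alike in their collagens. Among the 32 chains with a mean of at least 1 CPM, fx1 was the highest fx/fx library for 16, fx2 for 13 and fx3 for 3, and fx3 was the lowest for 20. Fx2 was the highest for Col1a1, Col1a2, Col3a1, Col5a1, Col5a2, Col12a1 and Col14a1, chains of the type I fibril or of its surface. The other chains highest in fx2 were Col6a3, Col7a1, Col8a1, Col8a2, Col25a1 and Col28a1, and Col5a3 of type V was highest in fx1. Fx1 was the highest for the 5 type IV chains with that level, for Col6a1 and Col6a2, and for Col15a1 and Col18a1. For types IX and XI, fx2 was the lowest in each of their 5 chains, though only narrowly in Col9a2.

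Marker lists of other cells differed between the same libraries, and their part in these differences was not tested. Pericyte and smooth muscle markers (8 genes, Cnn1 below 1 CPM in all libraries) summed to 224 to 318 CPM in wt/wt and to 409, 388 and 363 CPM in fx/fx. The largest part was Notch3, which overlapped, at 140, 197 and 116 CPM in wt/wt and 162, 194 and 211 CPM in fx/fx. Of the 8 genes, 6 did not overlap, with fx/fx above (9.74% of all genes). The 6 include Cnn1, with 9, 18 and 15 counts in wt/wt and 43, 35 and 30 in fx/fx, so its passing the filter also depended on the fx/fx libraries. Adipocyte markers (6 genes) summed to 20.2, 2.66 and 3.54 CPM in wt/wt and to 20.6, 83.2 and 30.9 CPM in fx/fx. Skeletal muscle markers (5 genes) were between 1.24 and 11.5 CPM in all libraries but fx2, where they reached 35.8 CPM. Basal or myoepithelial markers (6 genes) summed to 18.4 to 25.9 CPM in wt/wt and 27.7 to 39.2 CPM in fx/fx. Most of that sum was Mylk, which overlapped, at 22.4, 11.6 and 15.0 CPM in wt/wt and 27.1, 22.2 and 32.7 CPM in fx/fx. Only Krt5 of the 6 did not overlap, with fx/fx above (9.74% of all genes), and Krt17 had a log2 fold change of -0.30 (SE 0.94). Krt5 had 15, 7 and 17 counts in wt/wt and 85, 28 and 69 in fx/fx, so the same holds for its passing the filter as for Cnn1. Macrophage markers (4 genes) and Schwann cell markers (5 genes) overlapped between genotypes, at 84.8 to 173 CPM and 1026 to 1267 CPM over all libraries.

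**Figure D4:**
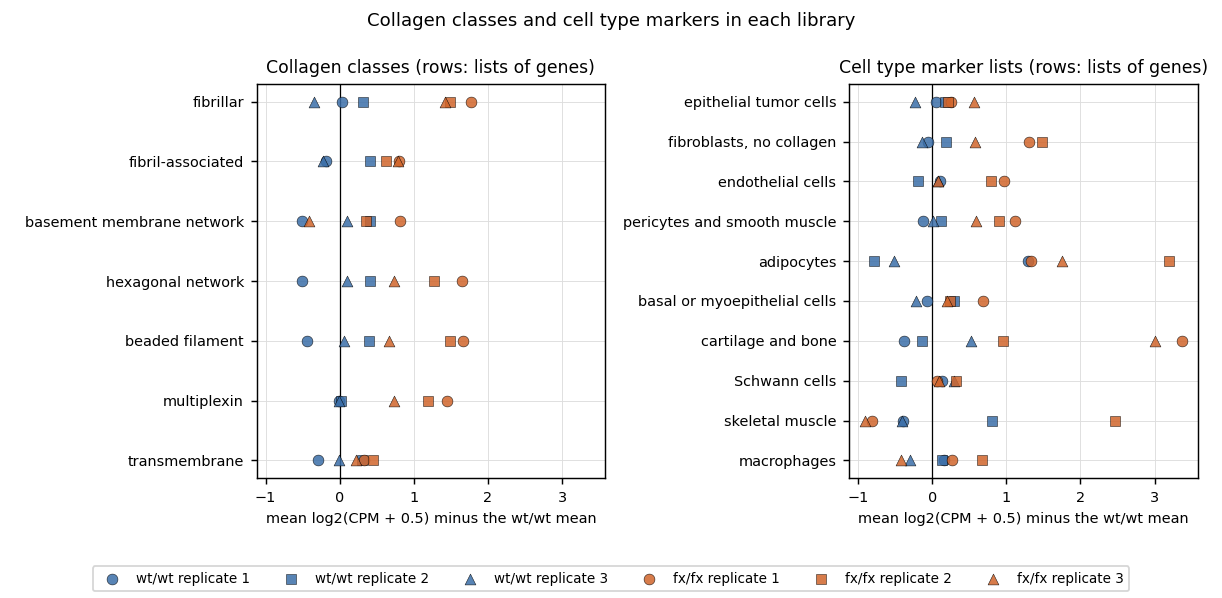
Mean log2(CPM + 0.5) relative to the wt/wt mean (x axis) of the tested chains of each collagen class (left) and of the markers with a mean of at least 1 CPM in each cell type list (right). Each point is 1 library, wt/wt in blue and fx/fx in orange. Fibrillar chains lie between 1.42 and 1.77 in the fx/fx libraries, and the fibroblast list without collagens at 1.31, 1.48 and 0.58 in fx1, fx2 and fx3.

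Some chains lie on chromosomes whose genes as a whole differed from wt/wt. On chromosome 4 the median of 653 protein-coding genes was 0.68 lower in fx1 and 0.81 lower in fx3 than the wt/wt mean on the log2 scale, and 0.12 lower in fx2. Within 5 Mb of Col15a1 the median was -0.70, -0.07 and -0.86 in fx1, fx2 and fx3, while Col15a1 itself was at 1.495, 1.22 and 0.65. Within 5 Mb of Col9a2 it was -0.82, -0.13 and -0.81, against 0.79, 0.69 and 0.72 for Col9a2. On chromosome 10 the median was -0.60 in fx1, where Col6a1, Col6a2, Col10a1, Col13a1 and Col18a1 lie, and these chains were between 1.41 and 3.50 above the wt/wt mean there.

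In other regions the neighbours were higher. Within 5 Mb of Col6a3, on chromosome 1, the median was 0.61, 0.52 and 0.65 in fx1, fx2 and fx3, but it also varied in wt/wt, at -0.28, -0.32 and 0.58. Col6a3 was at 1.41, 1.41 and 0.45 in fx/fx and at -0.71, 0.23 and 0.48 in wt/wt, so in fx3 it lay below its neighbours. Near Col4a4 the median was 0.54, 0.42 and 0.56 in fx/fx, against 0.16, -0.52 and 0.07 for Col4a4. Over the 32 chains, 29 lay above the median of their neighbours in fx1, 29 in fx2 and 25 in fx3. The part of these regions in the collagen values was not tested.

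**Figure D5:**
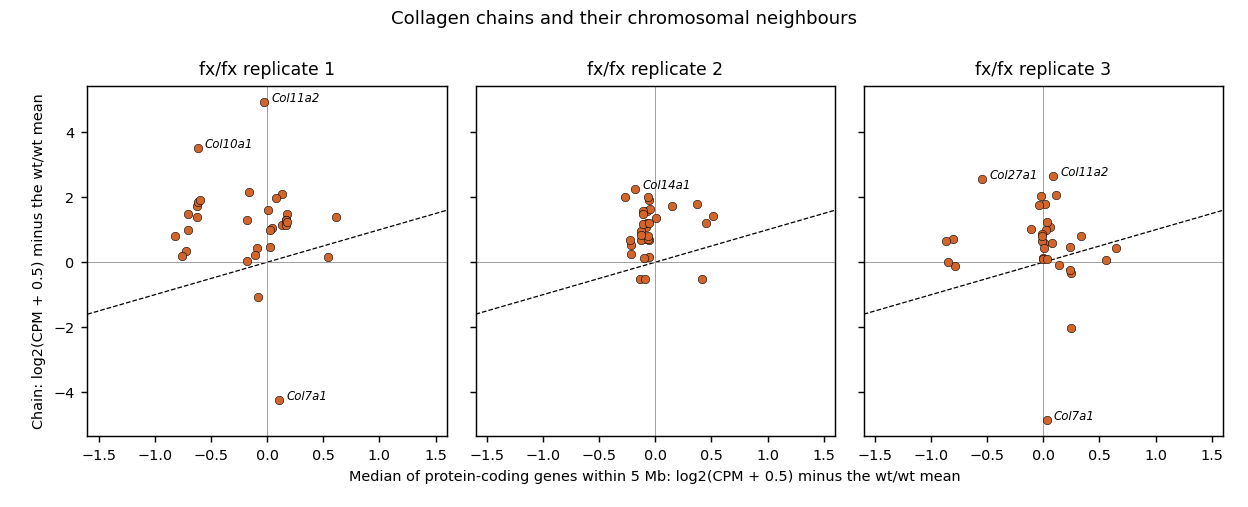
Each collagen chain (y axis) against the median of the protein-coding genes within 5 Mb of it (x axis), both as log2(CPM + 0.5) minus the wt/wt mean, in each fx/fx library. Points above the dashed line of equal values are chains above their neighbours: 29 of 32 in fx1 and fx2 and 25 of 32 in fx3, with neighbour medians between -0.86 and 0.65.

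Genes that process collagen were read from 5 lists. Of 13 genes that cleave procollagen or crosslink fibrils, 12 were tested, with a median log2 fold change of 1.31. Of the 12, 10 were higher and 0 lower at an unadjusted p under 0.05 in edgeR, against 8.18% and 6.04% of all genes, and DESeq2 called 7 higher, against 3.01% of all genes. After adjustment edgeR called 0 genes in each of the 5 lists. Loxl1, a lysyl oxidase that crosslinks collagen and elastin, measured 8.996, 8.13 and 7.84 CPM in wt/wt and 22.6, 28.7 and 16.2 CPM in fx/fx. Bmp1, which removes the carboxy-terminal propeptide, measured 6.89, 11.9 and 9.89 against 45.7, 37.5 and 18.2 CPM. Their log2 fold changes were 1.43 (SE 0.27) and 1.82 (SE 0.38), and those of Pcolce, an enhancer of that cleavage, and of Loxl4 were 1.36 (SE 0.31) and 2.35 (SE 0.62). Loxl4 was near the floor in wt/wt, with 3, 13 and 5 counts there and 62, 24 and 24 counts in fx/fx. Its passing the filter on low counts therefore depended on the fx/fx libraries, and it is among the 10 higher genes and the 7 DESeq2 calls.

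Small leucine-rich proteoglycans bind the surface of collagen fibrils. Of 10 listed, 9 were tested, with a median log2 fold change of 1.58. At an unadjusted p under 0.05, 6 were higher (8.18% of all genes) and 0 were lower (6.04% of all genes). The median is the value of Omd (SE 0.95), which is not among the 6. Omd was near the floor, with 0, 9 and 11 counts in wt/wt and 43, 9 and 11 in fx/fx. Its passing the filter on low counts also depended on the fx/fx libraries. Decorin (Dcn) measured 11.0, 9.58 and 9.39 CPM in wt/wt and 43.5, 58.8 and 17.9 CPM in fx/fx, and lumican (Lum) 4.94, 3.86 and 2.66 against 19.6, 22.4 and 8.25 CPM. Ogn and Bgn had log2 fold changes of 1.66 (SE 0.36) and 1.19 (SE 0.27). DESeq2 called 6 of the 9 higher (3.01% of all genes) and 0 lower (1.96% of all genes). Dcn and Lum are also in the fibroblast list, of which 9 of 10 genes were higher at an unadjusted p under 0.05 (8.18% of all genes). The exception was Pdgfra, at -0.16 (SE 0.25). Every fx/fx library lay above every wt/wt library for 7 of the 10 (9.74% of all genes), while Pdgfra, Pdgfrb and Thy1 overlapped.

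Folding and modification of the chains inside the cell showed smaller differences. Of 20 tested genes 5 were higher (8.18% of all genes) and 1 was lower (6.04% of all genes) at an unadjusted p under 0.05. Their median log2 fold change was 0.58, and DESeq2 called 3 higher (3.01% of all genes) and 0 lower (1.96% of all genes). Serpinh1, the collagen chaperone HSP47, measured 217, 359 and 269 CPM in wt/wt and 611, 417 and 556 CPM in fx/fx (log2 fold change 0.90, SE 0.26). Fkbp10, a prolyl isomerase of procollagen, measured 4.06, 4.85 and 4.04 against 25.2, 10.3 and 9.48 CPM. Creb3l1, a transcription factor that activates collagen genes in bone, and Crtap, a partner of prolyl 3-hydroxylase, had log2 fold changes of 1.81 (SE 0.54) and 0.69 (SE 0.21). The lower gene was P3h2, a prolyl 3-hydroxylase that acts on type IV, at -0.88 (SE 0.35), named after its values were seen; 1 lower gene of 20 is near the share of all genes.

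Receptors and degrading enzymes completed the lists. Of 9 tested receptors 2 were higher (8.18% of all genes) and 0 lower (6.04% of all genes) at an unadjusted p under 0.05, with a median of 0.44. The number under that p in either direction was between 1 (without wt1, wt3 or fx1) and 4 (without fx3) when 1 library was left out. The 2 were Ddr2, a receptor kinase for fibrillar collagen, at 1.22 (SE 0.32), and Mrc2, an endocytic collagen receptor, at 1.30 (SE 0.42). The next by p were Itga11 and Itga2, integrin chains that bind collagen, at 1.27 (SE 0.56) and 0.81 (SE 0.45). Of 6 tested degrading enzymes 4 were higher (8.18% of all genes) and 0 lower (6.04% of all genes), with a median of 1.41. These were Ctsk, the collagen-cleaving cathepsin K, at 1.51 (SE 0.43), Mmp14 at 2.06 (SE 0.60), Mmp9 at 1.94 (SE 0.61) and Fap at 1.32 (SE 0.44). Mmp9 had 13, 19 and 5 counts in wt/wt and 28, 46 and 59 in fx/fx, so its passing the filter also depended on the fx/fx libraries. Mmp14 measured 21.9, 23.4 and 17.9 CPM in wt/wt and 38.4, 43.3 and 181 CPM in fx/fx, so that fx3 stood far above the rest.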

How the data were processed

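RNA libraries of 6 mouse tumors were made with Illumina methods from TRIZOL-extracted RNA, per the labels' protocols. The deposited values are whole-number counts per gene, not normalized, made by the authors with featureCounts 1.6.0 on the Ensembl release 93 annotation of GRCm38 with strand option 2, per the file headers. Alignment was with STAR 2.5.1b and quality control with FastQC 0.11.5, per the submitters' processing notes, which also list DESeq, DESeq2 1.12.3 and featureCounts 1.4.6. Symbols came from GENCODE M21, which matched 54165 of 54232 identifiers, and 0 rows named no gene.

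The genotypes were compared with edgeR 4.0.16 (R 4.3.3): filterByExpr (minimum count 10), TMM and a robust quasi-likelihood fit. Its 2-sided p-values were adjusted by Benjamini-Hochberg over 16752 genes, and an adjusted p under 0.05 was a call. CPM values use TMM-scaled library sizes. SEs are the fold change over the square root of F. Alternatives were DESeq2 1.42.0 with default settings on the same genes, limma 3.58.1 voom, other scalings, no filter, a replicate block and leaving out each library. Levels per kilobase divide CPM by the exon length in the count files. Class and regional values per library use log2(CPM + 0.5); regional genes are protein-coding with a mean log2 value over 3. The scripts were tested on simulated counts.

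The members and the gene lists were chosen with earlier results of these data known. Every listed chain is accounted for, those with a mean of at least 1 CPM by the value in every library; of each processing list, up to 4 members with the smallest p are named. Further ratios, transcript lengths, 5 Mb neighbourhoods, leave-one-out fits of DESeq2, counts without Col17a1 and the choice of promoters were added after the data were seen. Same-numbered libraries of the 2 genotypes correlated in their deviations at -0.085, -0.095 and 0.057, so the numbers were not taken as pairs.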

Additional observations from a re-analysis of the deposited data

How the results depend on the processing

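The number of chains called was 0 with edgeR as described, with DESeq2 size factors, with library size only, with limma-voom, with the replicate block and without any 1 library (0 to 0). edgeR called 3 without the filter on low counts (Col3a1, Col9a3 and Col14a1, adjusted p = 0.0358, 0.0356 and 0.0141, among 38 of 29540 genes), and DESeq2 called 18. DESeq2 on every gene with a count above 0, added after the data were seen, called the same 18 chains. The count of chains higher at an unadjusted p under 0.05 ranged from 18 (without fx1) to 25 (without wt2) around 23, and was 19 with the replicate block. The count of chains lower was 0 to 1 without 1 library, and 1 with limma-voom and with the replicate block, in each case Col7a1. Chains with every fx/fx library above every wt/wt library numbered 19 to 25 without 1 library, where 12.9% to 18.6% of all genes did so. The replicate block changed no adjusted call, and the log2 fold change of Col16a1 turned to 0.037 in it.

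Without 1 library the median log2 fold change ranged from 1.20 to 1.71 for fibrillar and from 0.47 to 0.83 for fibril-associated chains. It ranged from 0.35 to 0.96 for transmembrane chains, a class that includes Col17a1. For basement membrane chains it ranged from -0.080 to 0.55, and it also turned to -0.04 without wt1. Signs turned without 1 library for Col4a5 (-0.12 without wt1 and -0.08 without fx1, up to 0.46), Col4a6 (0.55 without wt2 and 0.24 without fx3, down to -0.82), Col4a4 (0.04 without wt3 and 0.066 without fx2, down to -0.35), Col16a1 (0.93 without wt2, down to -1.23) and Col9a1 (-0.19 without fx3, up to 0.47). Receptors at an unadjusted p under 0.05 numbered 1 to 4. The cause of these changes was not tested. In all, 355 of 384 alternative fold changes of single chains kept their direction and their side of the threshold, 20 came past it and 9 turned their sign. With 3 libraries a genotype, chains under about 1 CPM are limited by depth.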
